A study of Mus musculus with 4 samples.

Results

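Ttn encodes titin, the giant filament protein of the sarcomere. Its transcript carried the most clusters of SRSF4-GFP crosslink sites among the nuclear regions with 10 or more clusters in these heart muscle cells. Sites were taken as Ttn by position: minus strand of mm9 chromosome 2, from 76540000 to 76825000, the interval given as the Ttn locus, with the 5′ end of the transcript at the high coordinate. This gave 1910 sites of the 33749 in the list (5.66%) and 2471 of its 93371 cDNAs (2.65%). The gene was selected on these same values, the number of listed sites and clusters already known to lie there. That number is therefore a description and has no test.

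The cells were neonatal cardiomyocytes of C57BL/6 mice taken at P0 or P1, cultured and transfected with 15 μg of modified RNA for an SRSF4-GFP fusion protein. Ultraviolet light of 254 nm (100 mJ) crosslinked protein to RNA 48 h after transfection, and an antibody to GFP recovered the complexes. In iCLIP the end of a cDNA marks the crosslinked nucleotide, so a site is a nucleotide and its cDNA number is the depth there. All 4 libraries are of the same group, with the fusion made from added RNA, and the list analysed is a sum that names 5 data sets and keeps no value per library. No GFP-only, input or untransfected sample was analysed here, there is no spread between replicates, and intervals given below are 95% exact binomial intervals that cover counting error only. The level of Ttn RNA was not measured here, so the number of contacts is not corrected for abundance.

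Titin runs from the Z-disc to the M-line, and its I-band part works as a spring that sets the passive stiffness of heart muscle. Its pre-mRNA is spliced from a very large number of exons. In the heart the splicing repressor RBM20 governs which I-band exons are kept, and long, compliant forms present before birth give way to shorter, stiffer ones afterwards. SRSF4 is an SR protein, a family with RNA recognition motifs and a domain rich in arginine and serine that binds pre-mRNA and acts in splice-site choice.

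The place and strand of the sites were compared with what is known of the gene. In GENCODE M21, annotated on GRCm38 (a later build, used here for lengths only), Ttn is a minus-strand gene of chromosome 2 with a length of 278.568 kb, and the mm9 window is 285 kb long. Within the window 1910 of 1912 listed sites (99.9%) were on the minus strand. The other two, at 76586258 and 76586260 on the plus strand, had 1 cDNA each. The nearest minus-strand sites outside the window lay 346 kb beyond its 3′ edge (76193577, 2 cDNAs) and 2519 kb beyond its 5′ edge (79344425, 1 cDNA). Just inside it, the outermost sites were at 76554564 and 76793016, with 1 cDNA each. The edges of the window therefore decide no site. Ttn held 68.0% of the 2809 minus-strand sites of chromosome 2. No annotation or sequence of mm9 was used, so exons, introns and the bases at these sites are not given.

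Contacts filled 2 separate blocks of the Ttn transcript and left most of the remainder nearly bare. Sites with steps of 50 nt or less make up a cluster. A block joins clusters with less than 5 kb between them, a distance chosen after the sites were seen. The 266 clusters fell into 9 blocks, and the 2 large ones held 258 clusters (97.0%), 1879 sites (98.4%) and 2433 cDNAs (98.5%) in 78.3 kb, which is 27.5% of the window. The 5′ block ran from 76759120 down to 76723037, 36.1 kb, with 124 clusters, 895 sites and 1198 cDNAs. The 3′ block ran from 76702396 down to 76660230, 42.2 kb, with 134 clusters, 984 sites and 1235 cDNAs. The blocks were close in cluster density, with 3.44 clusters per kb in the 5′ block and 3.18 in the 3′ block. Clusters covered 9.35% and 9.87% of their length.

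**Figure D1:**
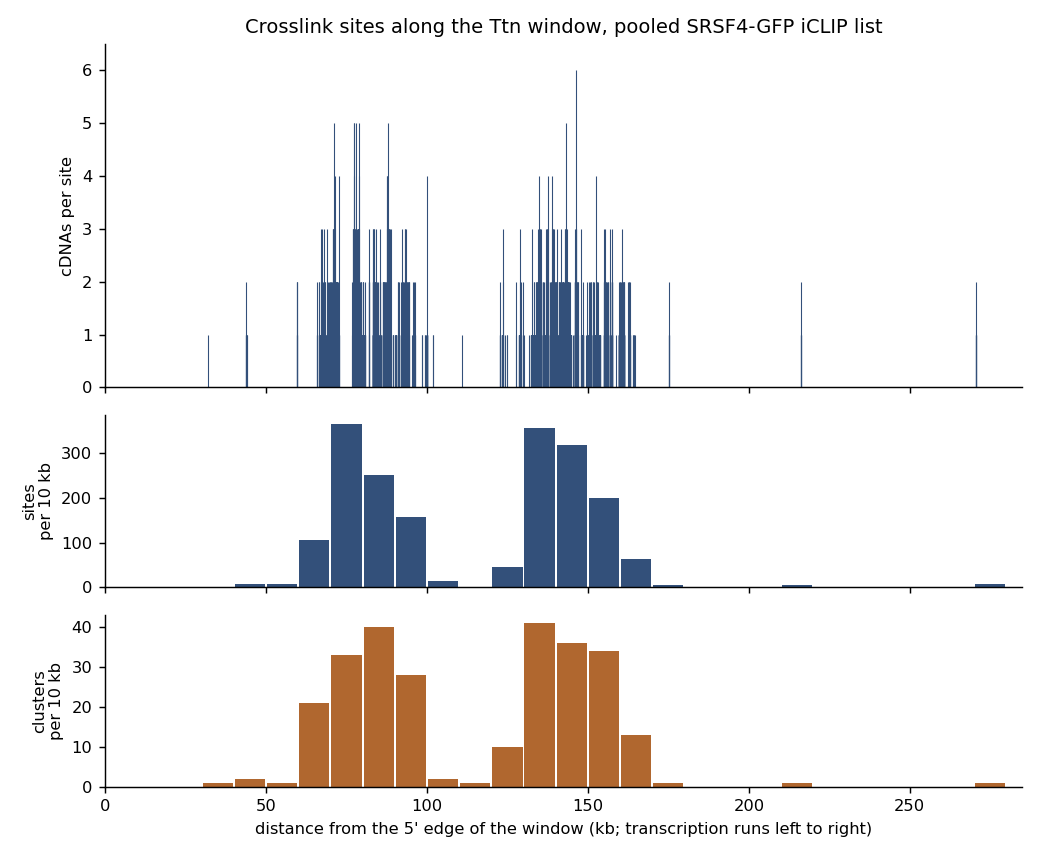
Crosslink sites along the Ttn window, with distance from its 5′ edge in kb on the horizontal axis and transcription running left to right. The upper panel shows the pooled cDNAs at each site (1 line per site, linear axis), the lower panels the number of sites and of clusters in bins of 10 kb; 2 blocks stand out, centred near 80 and 145 kb, and beyond 180 kb only 2 clusters remain.

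Outside the blocks the transcript had few listed contacts. The 20.6 kb between the blocks held a single site of 1 cDNA, at 76714016. The 65.9 kb from the 5′ edge of the window to the first block held 4 clusters with 14 sites and 18 cDNAs. The 120.2 kb on the 3′ side of the second block held 3 clusters with 16 sites and 19 cDNAs, at 76649780 to 76649795 (5 sites), 76608708 to 76608720 (5 sites) and 76554564 to 76554569 (6 sites). The last of these, at the 3′ end of the window, covered 6 consecutive nucleotides with 7 cDNAs. The widest gaps between neighbouring clusters were 54.1 kb and 41.1 kb, both on the 3′ side, followed by 15.7 kb and 11.8 kb on the 5′ side and 11.6 kb next to the lone site between the blocks. A stretch with no listed site may still have had cDNAs below the authors' threshold.

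Density rose and fell within each block. In bins of 10 kb from the 5′ edge of the window, 12 of 29 bins held no site. In the 5′ block the bin from 70 to 80 kb held 367 sites and 520 cDNAs in 33 clusters. The next bin held fewer sites, 252, but more clusters, 40, and the bin from 90 to 100 kb held 157 sites. In the 3′ block the bin from 130 to 140 kb held 357 sites in 41 clusters, and the next ones 318 and 201 sites. In both blocks the site count was thus highest on the 5′ side of the block's middle and lower toward its 3′ end. In bins of 20 kb the densest, from 140 to 160 kb, held 519 sites, or 27.2% of the total (interval 25.2% to 29.2%). With bins moved by 10 kb the densest held 35.3%, since the 20 kb edge at 140 kb divides the 3′ block.

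Few stretches within the blocks were bare. Cut into 1 kb tiles from its 5′ end, the 5′ block had at least 1 site in 31 of 37 tiles, with a median of 17 sites and at most 85. The 3′ block had a site in 39 of 43 tiles, with a median of 18 and at most 90. The widest gap between clusters was 4289 nt inside the 5′ block and 2988 nt inside the 3′ block.

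Single clusters were short in nucleotides and closely set, but not narrow for this list. Their median width was 16 nt (quartiles 8.25 and 31 nt), and 11 of 266 (4.14%) were at least 100 nt wide, the widest 318 nt. Among the other nuclear clusters of the list the median width was 4 nt, and 66 of 6980 (0.946%) were at least 100 nt wide. This difference was not tested. The median gap from a Ttn cluster to the next was 161 nt (quartiles 89 and 307 nt). Of 265 gaps, 79 (29.8%) were under 100 nt, 81 (30.6%) from 100 to 199 nt, 68 (25.7%) from 200 to 499 nt, and 8 (3.02%) were 5 kb or more. Within the blocks the median gap was 137 nt on the 5′ side and 164 nt on the 3′ side. The annotated transcript with the most exons, Ttn-203, has 347 exons and a spliced length of 106.8 kb. Its median exon is 267 nt and its median intron 164 nt, with a median of 419 nt from the start of an exon to the start of the next. Cluster centres were 196 nt apart in the median (quartiles 121 and 327.5 nt). These lengths are set side by side only, because clusters were not placed on exons. The same transcript has a single exon of 17106 nt, number 309, toward its 3′ end. The widest Ttn cluster, 318 nt, was far narrower, but cluster width does not show whether that exon had contacts.

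**Figure D2:**
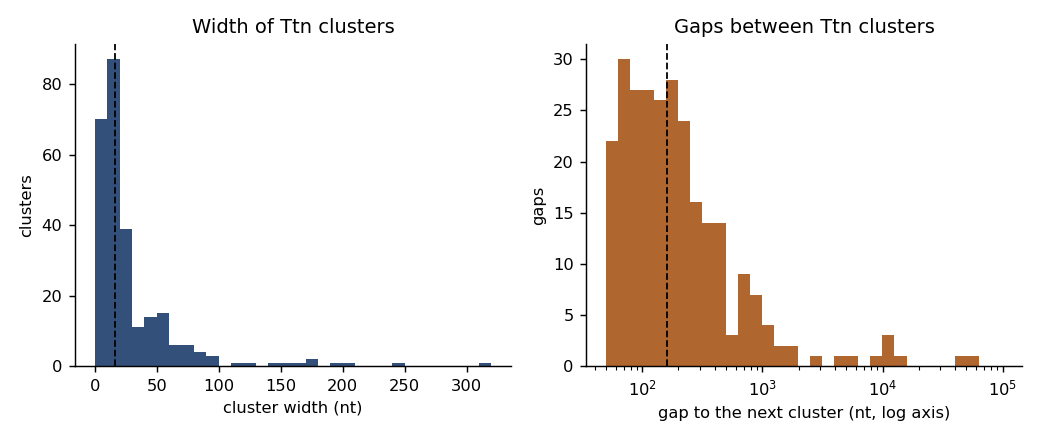
Widths of the 266 Ttn clusters in bins of 10 nt (left, linear axis) and gaps between neighbouring clusters (right, log axis), with dashed lines at the medians of 16 nt and 161 nt. Most clusters are under 50 nt wide, and the gaps of 5 kb or more, 8 of 265, make up the right end of the distribution, after 10 gaps of 1000 to 4999 nt.

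A Ttn cluster usually held several sites of low depth. The median cluster had 5 sites and 7 cDNAs. Clusters of 5 to 9 sites were the most frequent size, 112 of 266 (42.1%, interval 36.1% to 48.3%), and 38 clusters (14.3%) were a lone site. Among the 6980 other nuclear clusters of the list the median was 3 sites, 3 cDNAs and 4 nt of width, 15.1% had 5 to 9 sites (interval 14.2% to 15.9%) and 20.2% were a lone site. At the upper end, 15 Ttn clusters (5.64%) had 20 or more sites, 6 of them in the 5′ block and 9 in the 3′ block, and these held 22.8% of Ttn sites. Among the other nuclear clusters 161 (2.31%) were of this size, and they held 27.8% of the sites there. No test was made of these differences, since Ttn was chosen for its sites and the list is a single pool.

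Depth stayed low along the whole transcript. Of the 1910 sites, 1477 had 1 cDNA (77.3%, interval 75.4% to 79.2%), 333 had 2, 81 had 3, 11 had 4, 7 had 5 and 1 had 6. The mean was 1.29 cDNAs per site. Among the other 30981 nuclear sites, 64.8% had 1 cDNA (interval 64.3% to 65.4%), the mean was 2.77, and 2411 (7.78%) had more than 6. These intervals treat neighbouring sites as independent, and the difference was not tested. The pool of other nuclear sites includes a few very deep loci. Set beside the 29 other nuclear regions of 10 or more clusters, the Ttn share was on the low side: their median share with 1 cDNA was 82.7%, with 22 above Ttn and 7 below. Ttn sites with 2 or more cDNAs made up 25.0% of the 5′ block (interval 22.2% to 28.0%) and 20.5% of the 3′ block (18.0% to 23.2%). The intervals overlap, but overlap does not decide whether the shares differ, and the difference was not tested. In the 9 bins of 10 kb with 20 or more sites, this share ran from 17.5% to 28.6% and the mean from 1.19 to 1.42 cDNAs per site. The highest of both was in the bin from 70 to 80 kb, which also had the most sites.

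**Figure D3:**
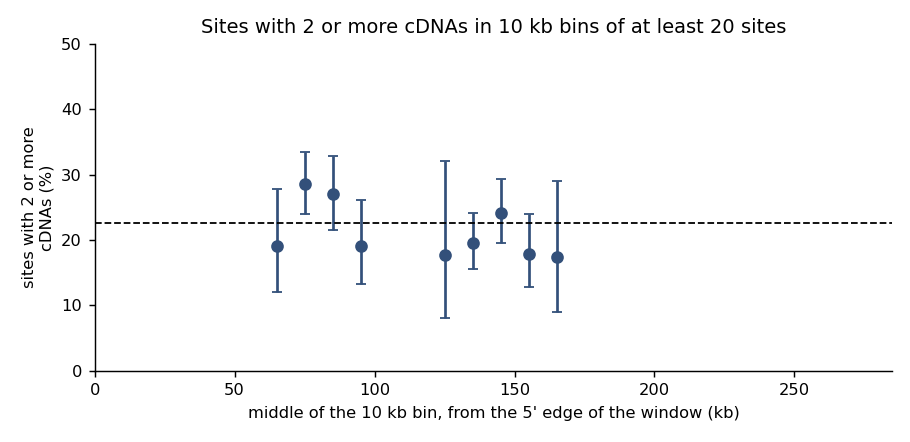
Percent of Ttn sites with 2 or more cDNAs in each 10 kb bin of at least 20 sites (vertical axis), by the middle of the bin in kb from the 5′ edge of the window (horizontal axis); bars are 95% exact binomial intervals and the dashed line is the 22.7% of all Ttn sites. The points lie between 17.5% and 28.6%, and the bin centred at 75 kb is highest.

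Larger Ttn clusters were not much deeper per listed site than small ones. The mean was 1.18 cDNAs per site for lone sites, 1.26 for clusters of 2 to 4 sites, 1.25 for 5 to 9, 1.31 for 10 to 19 and 1.37 for 20 or more. In the other nuclear clusters the corresponding means were 2.06, 1.24, 1.47, 2.67 and 5.88. Means elsewhere were thus most above Ttn in clusters of 10 or more sites and next at lone sites, and close to Ttn at 2 to 4 sites. In clusters of 20 or more sites the highest nucleotide had 6 cDNAs in Ttn and 296 elsewhere. Accordingly, no few clusters dominated Ttn. The 50 clusters with most cDNAs, 18.8% of the 266, together held 50% of its cDNAs, whereas 65 of the 6980 other nuclear clusters (0.931%) sufficed. The units differ, since a single transcript is set beside a pool of many loci, whose top cluster alone held 13.1% of its cDNAs. The same measure within other single regions is not given. The single cluster with the most cDNAs had 2.31% of the Ttn total.

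Sites inside Ttn clusters were mostly not at consecutive nucleotides. The shares of other nuclear clusters are given beside them, and the differences were not tested. Of 1644 steps from a site to the next within a cluster, 551 (33.5%) were of 1 nt, the median was 2 nt, and 58 (3.53%) were over 15 nt. In other nuclear clusters 61.9% of 24001 steps were of 1 nt, the median was 1 nt, and 328 (1.37%) were over 15 nt. That pool includes very deep loci, with 5.88 cDNAs per site in its clusters of 20 or more sites against 1.37 in Ttn. Steps were not compared at like depth. A listed site at an adjacent nucleotide was present for 47.3% of Ttn sites (interval 45.1% to 49.6%) and 66.1% of other nuclear sites (65.6% to 66.6%). Because the authors kept positions by their sum within 15 nt, near neighbours are partly built into the list, and 49 Ttn sites (2.57%) had no other within 15 nt. That share was higher, 4.67%, among other nuclear sites, so by this measure Ttn sites were not the more isolated ones. Steps over 15 nt inside clusters went the other way, with 3.53% in Ttn against 1.37%. The highest nucleotide had no fixed place in a cluster. In the 93 Ttn clusters with 5 or more sites and a single highest site, it lay at a median of 46.2% of the width from the 5′ end (quartiles 14.8% and 79.6%), and in 49 of them in the 5′ part of the cluster (52.7%, interval 42.1% to 63.1%). In the 715 other nuclear clusters of this kind the median was 51.4% (quartiles 20.6% and 80%). In 343 of those it lay in the 5′ part (48.0%, interval 44.3% to 51.7%).

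The clusters with the most sites or cDNAs show how contacts are laid out at single nucleotides. Clusters are numbered from 1 at the 5′ end to 266. Cluster 30 (76754064 to 76754305, 5′ block) had the most cDNAs, 57, on 43 sites over 242 nt. Of these sites 32 had 1 cDNA, 8 had 2 and 3 had 3, the last at nucleotides 8, 10 and 239 counted from the cluster's 5′ end. Cluster 196 (76681850 to 76682167, 3′ block) had the most sites, 44, with 53 cDNAs over 318 nt. Its 2 highest nucleotides, 70 and 142, had 3 cDNAs each, and 37 sites had 1. Both were wide, shallow and without a dominant nucleotide.

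Cluster 197 (76681615 to 76681696) follows 153 nt after cluster 196 and was denser. It had 53 cDNAs on 29 sites within 82 nt, or 1.83 per site, against 1.20 in cluster 196. Its first 19 nucleotides all had a site, with 1 cDNA at nucleotide 1, 5 at nucleotide 13 and 1 at nucleotide 19. This was the longest unbroken series of sites among the 6 clusters with most sites or cDNAs, the next longest being 6 nt in cluster 30.

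Cluster 206 (76678537 to 76678740, 3′ block) held the deepest nucleotide of Ttn. At 76678641, nucleotide 100 of the cluster, 6 cDNAs were listed, 10.9% of the cluster's 55. Its neighbours were low, with 1 cDNA at nucleotide 99, 2 at nucleotide 102 and 2 at nucleotide 97. Over the whole cluster, these included, 3 nucleotides had 3 cDNAs, 6 had 2 and 28 had 1. Cluster 43 (76747662 to 76747814, 5′ block) had 46 cDNAs on 34 sites, with at most 3 at a nucleotide. Cluster 180 (76684985 to 76685160, 3′ block) had 36 cDNAs on 32 sites, with at most 2 at a nucleotide.

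**Figure D4:**
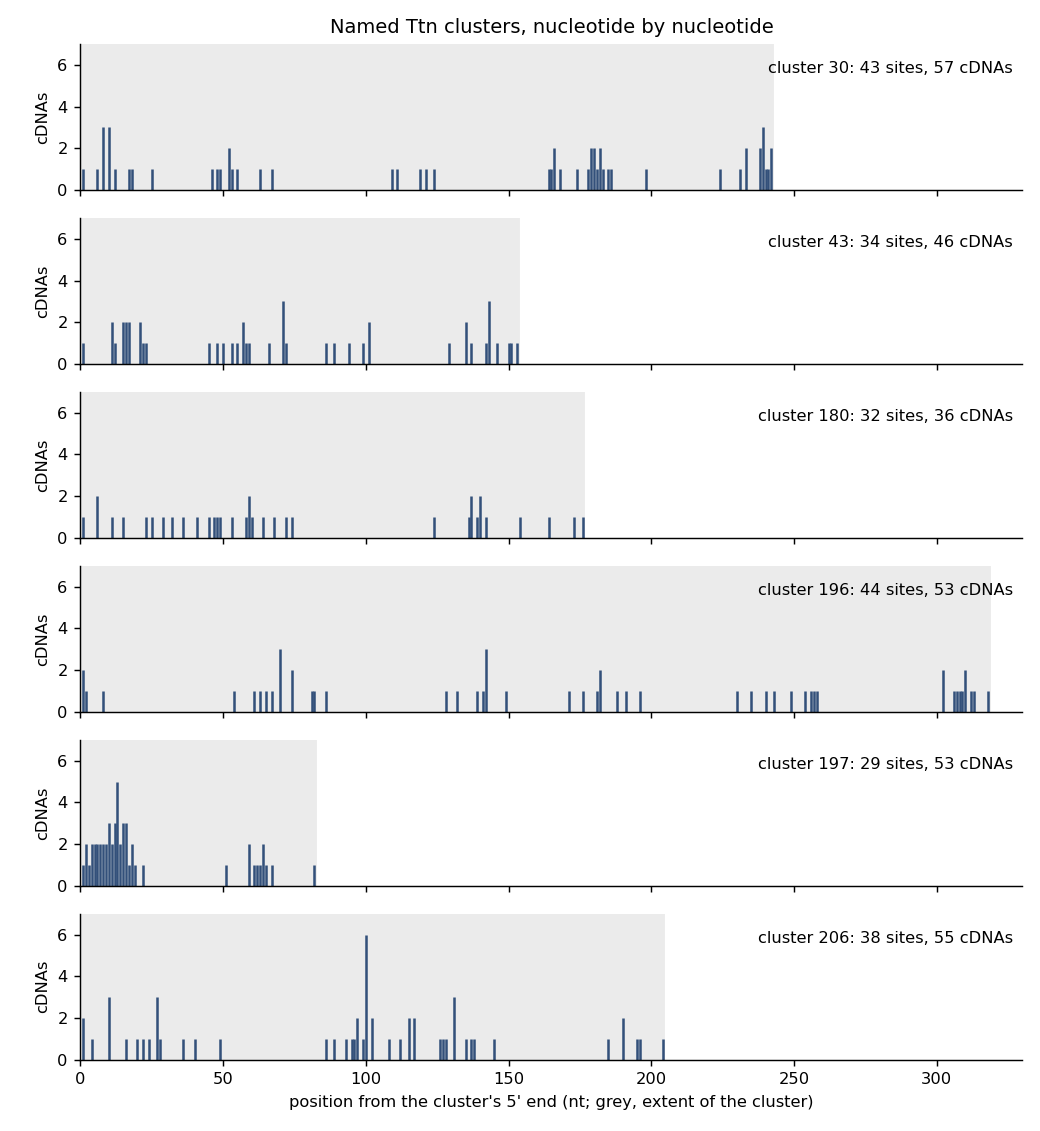
Pooled cDNAs at each nucleotide (vertical axis, same linear scale in every panel) of the 6 Ttn clusters that have the most sites or the most cDNAs, by position from the cluster's 5′ end in nt; grey marks the extent of the cluster. Cluster 197 opens with 19 consecutive sites, cluster 206 has the nucleotide with 6 cDNAs, and the others are shallow throughout.

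Of the 7 sites with 5 cDNAs, 6 lay in the 5′ block, which held 46.9% of all Ttn sites. The site with 6 cDNAs lay in the 3′ block. These are too few to show a difference between the blocks, and none was tested. The sites with 5 cDNAs were at 76753997, 76747509, 76747508, 76747078, 76746219 and 76737149 in the 5′ block, and at 76681684 in cluster 197 of the 3′ block. Those at 76747508 and 76747509 are adjacent nucleotides of cluster 44, which had 40 cDNAs on 20 sites. The site at 76753997 made up 41.7% of the 12 cDNAs of its cluster, the highest share among the 8 sites with 5 or more. The step from 5 to 6 cDNAs is within counting error, so these sites have no order among themselves.

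The Ttn field was then set beside the other nuclear regions with many clusters, taking clusters of the same strand as a region when gaps between them stay under 20 kb. This leaves out the 2 most 3′ Ttn clusters and gives 264 clusters, 1899 sites and 2458 cDNAs over 143 kb. That span rests on the lone site of 1 cDNA between the 2 blocks. Without it, the 20.6 kb between the blocks would split the region. Of the 29 other regions with 10 or more clusters, the largest had 48. In cDNAs only 1 region was above Ttn, with 11994. In depth Ttn was above 24 of 29 regions, at 1.29 cDNAs per site, close to their median of 1.22 and far below their highest, 6.35. Its 7.19 sites per cluster were above 23 of 29, and its median gap of 158 nt was shorter than in 24 of 29.

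The 3 regions with the most clusters after Ttn differed from it in opposite ways. The minus strand of chromosome 14 from 55558453 to 55584703 had 48 clusters with 26.0 sites each, and 54.7% of its sites had 1 cDNA (interval 51.9% to 57.5%). The minus strand of chromosome 19 from 5795094 to 5802675 had 37 clusters and 6.35 cDNAs per site, and 13.9% of its sites had 1 cDNA (12.3% to 15.5%). The minus strand of chromosome 13 from 12140004 to 12191373 had 36 clusters with 3.94 sites each, none above 2 cDNAs, and 90.8% had 1 cDNA (84.9% to 95.03%). The Ttn region's 77.3% (75.4% to 79.2%) lay between these. In clusters per kb the chromosome 14 region, at 1.83, nearly matched the whole Ttn region at 1.84, but it had 89.4 cDNAs per kb against 17.2. Within the 5′ and 3′ blocks of Ttn the values were 3.44 and 3.18 clusters per kb, and 33.2 and 29.3 cDNAs per kb.

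Regions with almost the same depth per site as Ttn were far smaller. The 3 nearest in mean cDNAs per site were on the plus strand of chromosome 2 from 90958297 (1.29, 12 clusters, 51 sites), the minus strand of chromosome 11 from 58866731 (1.28, 20 clusters, 57 sites) and the minus strand of chromosome 9 from 66875868 (1.28, 16 clusters, 139 sites). Their shares of sites with 1 cDNA were 78.4%, 75.4% and 81.3%. A mean this low largely sets that share, so its closeness to the Ttn value follows from how the regions were picked. These 3 regions differed from Ttn in density, with 2.72, 3.98 and 6.59 sites per kb against 13.3. That density is an average over the whole Ttn region, near-bare stretches included. It was not particular to Ttn, since 7 of the 29 other regions were above it. Within the 5′ and 3′ blocks the density was 24.8 and 23.3 sites per kb. The other regions were not split into blocks. The minus strand of chromosome 14 from 35372265 (1.25 cDNAs per site, 32 clusters, 281 sites) was close to the whole Ttn region in depth and density. It had 14.4 sites per kb, 8.78 sites per cluster and a median gap of 151 nt. Nuclear regions other than Ttn are given by mm9 position only, without gene names.

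**Figure D5:**
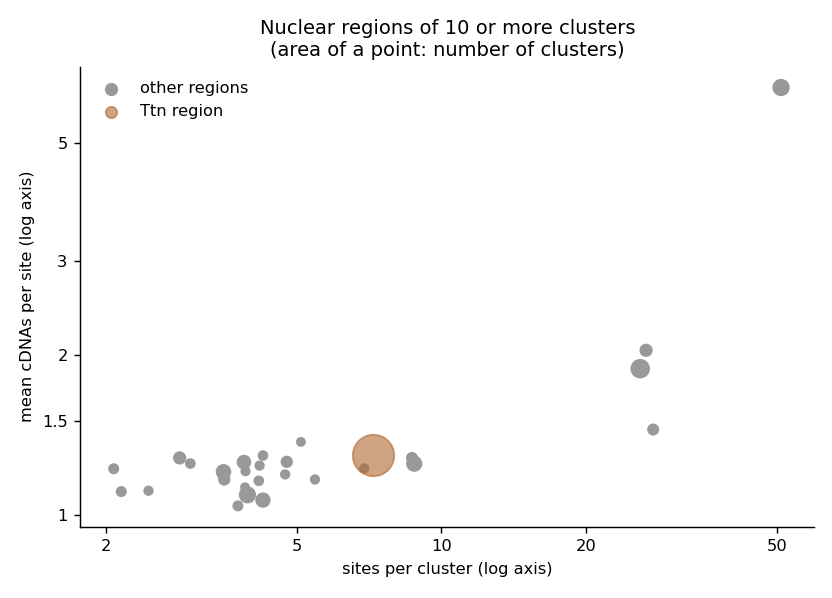
Nuclear regions of 10 or more clusters by sites per cluster (horizontal, log axis) and mean cDNAs per site (vertical, log axis); the area of a point is proportional to its number of clusters, with Ttn in orange and the 29 others in grey. Ttn has by far the largest point, 264 clusters, and lies among the shallow regions, below the region at 6.35 cDNAs per site.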

How the data were processed

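The deposited file lists single-nucleotide positions on mm9, with a deposited score that gives the cDNAs there as a whole number, negative on the minus strand. The authors summed 5 data sets and filtered positions to FDR < 0.05 (100 permutations, 15 nt neighbourhood, gene regions of Ensembl 59 treated apart), per the file headers. RNA was cut to 80 to 200 nt, per the labels' protocols, and the submitters' processing notes list Bowtie 0.10.1. The peak caller and duplicate handling were not given in the sources used here.

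Coordinates count from 1. Ttn sites were taken by the window above and joined into clusters (steps of at most 50 nt), blocks (gaps under 5 kb) and regions (gaps under 20 kb). Items named are the 5 clusters with most sites or with most cDNAs, sites of 5 or more cDNAs, the end clusters, the 5 widest gaps, and the 3 regions with most clusters or nearest in mean depth. The chromosome 14 region from 35372265 was added for a density similar to that of the whole Ttn region, after the values were seen. Members and rules were chosen with earlier results of these data known. Clustering was tested on simulated data. Depth per library is unknown, and no count model or test between groups was possible. Python 3.11.15, numpy 2.4.6, pandas 2.3.3, scipy 1.17.1 and matplotlib 3.10.9 were used.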

Additional observations from a re-analysis of the deposited data

How the results depend on the processing

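Joining sites at up to 15, 30 or 100 nt gave 324, 301 and 187 clusters in place of 266, and sites with 2 or more cDNAs alone gave 190. The median gap of 161 nt became 125, 134 and 226.5 nt at these distances and 212 nt with the deeper sites alone, the first 3 by construction. The median width of 16 nt became 18 nt at 100 nt and 3 nt with the deeper sites alone, where fewer sites define a cluster. The share of sites with 1 cDNA, 77.3%, was 75.0% in the 5′ block and 79.5% in the 3′ block, and 76.9% without the run of 566 sites. The densest 20 kb held 35.3% of sites, in place of 27.2%, with bins moved by 10 kb. Where gaps of 2 kb end a block, the 2 largest blocks held 83.9% of sites in place of 98.4%; with 8 kb they held 98.7%. The block alternatives were chosen after the data were seen. No paired analysis was possible because all libraries belong to the same group and the list is pooled, and leaving out a library was not possible for the same reason.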
